A study of Homo sapiens with 12 samples.

Results

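The 8 genes PCK1, TAT, IGFBP1, CPS1, ARG1, HPD, TDO2 and PPARGC1A are genes of liver metabolism that are known as targets of FOXA factors in hepatocytes. They were followed here in U2OS, a human osteosarcoma cell line, through every accessible region found in the gene or within 50 kb of either end. The rule names the genes and uses no measured value, although they were proposed with earlier results of these data known. Overlapping entries of all 9 deposited peak lists were merged into 399183 sites genome-wide, of which 223 lay in the windows of the 8 genes. Open chromatin was profiled with ATAC-seq (adapters are inserted by the Tn5 transposase where DNA is accessible) in 12 samples of U2OS in 6 groups of 2 labelled biological replicates.

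The first 3 groups, called the FOXA2 set here, were WT, FOXA2FL (a Tet-on FOXA2 construct of full length) and FOXA2dCTD (a Tet-on FOXA2 construct without its CTD). The other 3, called the SOX2 set, were a WT whose label also names the SOX2 cell line, SOX2FL (Tet-on SOX2) and SOX2FLFOXA2CTD (Tet-on SOX2 fused to the FOXA2 CTD, called the fusion). The construct samples carried doxycycline at 500 ng/ml for 4 days in their treatment field. That field was empty for both WT groups, while the protocol text on every sample names doxycycline, so the doxycycline state of the WT cells is not known. Nor do the labels say whether the second WT came from unmodified U2OS cells or from uninduced cells of the SOX2 line. The label of the cells was checked at marker genes of bone and liver. The start of SPARC, a matrix protein gene of bone cells, was called in 9 of 9 lists, and that of ALB, the albumin gene of hepatocytes, in 0. RUNX2, an osteoblast regulator, was called at a start in 7 lists and HNF4A, a hepatocyte regulator, in 1, while the start of the hepatocyte gene SERPINA1 was called in 2 and that of the mesenchymal gene VIM in 7. Called sites anywhere in the gene bodies divided only in part along these lines. Among the hepatocyte genes, HNF4A held one in 9 lists, APOA1 in 7, ALB in 2, SERPINA1 in 2 and TTR in 0. Among the others, SPARC held one in 9, RUNX2 in 8, VIM in 7, and the collagen genes COL1A1 and COL1A2 in 9 and 3. APOA1, TTR, COL1A1 and COL1A2 had no listed start to check. The FOXA2 gene itself held a called site in all 6 lists of the FOXA2 set, WT included, so its accessibility does not check the construct labels.

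FOXA proteins are forkhead factors that can bind their sites on nucleosomes, and in liver they mark enhancers at which hormone-responsive factors act in fasting. The 8 genes cover the main steps of that response. PCK1 encodes the cytosolic enzyme that commits carbon to gluconeogenesis, and PPARGC1A a coactivator that raises gluconeogenic genes. TAT, HPD and TDO2 break down tyrosine and tryptophan, CPS1 and ARG1 open and close the urea cycle, and IGFBP1 encodes a secreted binder of insulin-like growth factors that is repressed by insulin.

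The upstream bases of 5 gene starts are shown because they set starts that were called in some lists beside starts that were called in none. They are the 250 bases before the start in RefSeq (GRCh38.p14), written 5′ to 3′ on the strand of the gene. Capitals mark matches to the letters searched on both strands, of which there were 4 kinds. The forkhead letters were TGTTTAC as well as the variants TGTTTGC and then also TATTTAC or else the form TATTTGC. The SOX letters were CATTGTT or else the form CTTTGTT. For AP-1 they were TGANTCA, and for the cAMP element TGACGTCA. No 2 of these matches overlapped in the sequences shown.
PPARGC1A distal start, chr4:24472906-24473155, minus strand, called in 6 lists: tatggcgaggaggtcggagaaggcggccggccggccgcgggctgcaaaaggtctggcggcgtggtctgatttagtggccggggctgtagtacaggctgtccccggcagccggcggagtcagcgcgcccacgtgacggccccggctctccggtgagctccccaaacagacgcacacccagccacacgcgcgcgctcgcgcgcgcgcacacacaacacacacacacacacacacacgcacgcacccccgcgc
HPD downstream start, chr12:121858860-121859109, minus strand, called in 3 lists: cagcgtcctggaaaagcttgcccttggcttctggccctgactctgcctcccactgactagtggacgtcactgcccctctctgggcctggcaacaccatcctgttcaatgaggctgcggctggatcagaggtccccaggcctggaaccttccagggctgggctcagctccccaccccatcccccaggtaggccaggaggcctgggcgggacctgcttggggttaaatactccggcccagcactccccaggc
PPARGC1A proximal start, chr4:23881102-23881351, minus strand, called in no list: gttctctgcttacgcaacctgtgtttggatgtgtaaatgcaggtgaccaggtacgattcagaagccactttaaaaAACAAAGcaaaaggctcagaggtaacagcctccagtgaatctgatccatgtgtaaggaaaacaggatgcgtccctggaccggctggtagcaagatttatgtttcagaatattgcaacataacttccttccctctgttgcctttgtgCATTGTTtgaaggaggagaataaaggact
CPS1 middle start, chr2:210519468-210519717, plus strand, called in no list: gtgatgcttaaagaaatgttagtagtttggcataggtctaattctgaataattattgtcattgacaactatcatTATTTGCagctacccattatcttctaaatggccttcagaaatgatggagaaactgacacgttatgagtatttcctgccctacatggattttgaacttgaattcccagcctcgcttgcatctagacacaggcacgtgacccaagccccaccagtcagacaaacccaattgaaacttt
ARG1 start, chr6:131572976-131573225, plus strand, called in no list: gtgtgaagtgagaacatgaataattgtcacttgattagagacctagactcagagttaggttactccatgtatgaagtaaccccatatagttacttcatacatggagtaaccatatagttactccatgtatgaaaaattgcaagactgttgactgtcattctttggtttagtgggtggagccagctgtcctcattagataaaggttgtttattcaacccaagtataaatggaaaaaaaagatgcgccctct

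The called PPARGC1A start was 70.8% G and C over these bases and the uncalled one 44%. The HPD start stood at 64.8%, the CPS1 start at 40% and the ARG1 start at 37.6%. The forkhead letters occurred once, TATTTGC in the uncalled CPS1 start at position −176, counted from the start. The SOX letters occurred in the uncalled PPARGC1A start at positions −175 and −29. Over the 300 bases around a start (250 before and 50 after), the RefSeq table gave 9 starts for 5 of the 8 genes, and the AP-1 letters matched in 2 of these, the distal HPD start and the TDO2 start. Among all 35116 such promoters, 12.1% held the forkhead letters, 8.22% the SOX letters, 7.71% the AP-1 letters and 1.85% the cAMP element. A match of letters is a description and not a bound site.

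The lists differed in length by up to 8.11 times within the FOXA2 set, and the sites called near the 8 genes ran from 9 in WT replicate 1 to 87 in FOXA2FL replicate 1. On chromosomes 1 to 22 and X, the WT lists held 19862 and 25088 peaks (replicates 1 and 2), the FOXA2FL lists 161136 and 57946, and the FOXA2dCTD lists 78820 and 146854. The SOX2 set had 1 list per group, in the layout of an irreproducible discovery rate (IDR) comparison, with 48142 entries at a global IDR of at most 0.05 for WT, 65628 for SOX2 and 75544 for the fusion. Read depth is unknown. The WT replicate 2 and FOXA2FL replicate 2 lists lacked mitochondrial peaks and began at −log10 p values of 5.43 and 5.22, whereas the other 4 lists began between 2.01 and 3.44, and no FOXA2dCTD list was of the first kind. The labels name no batch, and the kinds are read from the lists alone. The part of list length and of this difference in the calls was not tested apart from the alternatives given with the counts.

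Strength is given as the authors' −log10 p of a peak and as its rank by that value within its own list, with tied peaks sharing the best rank. A top percent is the rank as a share of the list, so that a low value marks a strong peak. A site counted as gained with a FOXA2 construct when both libraries of the construct had a peak there and neither WT library did. In the SOX2 set, gained means an entry with a global IDR of at most 0.05 in the construct list and none in that WT list. An exact permutation test of 2 against 2 libraries cannot give a p below 0.33, and the SOX2 set has no replicate lists, so calls rest on overlap and carry no p-value.

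Near the 8 genes, 15 of the 150 sites of the FOXA2 set were gained with full-length FOXA2 (10.0%), against 9.39% of all 265939 sites of the set. FOXA2dCTD gained 11 of them (7.33%, against 9.32% of all sites), and 4 were gained with both constructs (2.67%, against 4.51%). No site was lost with either construct, where all sites gave 0.153% and 0.0553%. These shares lay near those of the genome as a whole. By gene, 6 of the 8 had at least 1 site gained with full-length FOXA2, against 73.5% of 19970 protein-coding genes. For FOXA2dCTD it was also 6 of 8, against 69.8%, and for both constructs 4 of 8, against 49.6%. PCK1, IGFBP1, CPS1, ARG1, HPD and PPARGC1A had gains with each construct, and TAT and TDO2 had none.

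The counts depended on how many peaks each list was allowed. With the strongest 19862 peaks of every list, 2 sites were gained with full-length FOXA2 (8.33% of 24 sites, against 7.64% of all), the sites upstream of IGFBP1 and downstream of HPD, and 1 with FOXA2dCTD, inside HPD. At a common −log10 p threshold of 5.43 the counts were 7 (15.6%, against 15.6%) and 2 (4.44%, against 7.91%). Among the lists without mitochondrial peaks, which pair 1 FOXA2FL with 1 WT library, 24 sites (16%, against 13.8%) were gained, and among the other lists 80 (53.3%, against 52.4%) with full-length FOXA2 and 13 (8.67%, against 12%) with FOXA2dCTD. In each of these the share near the 8 genes moved with the share of all sites, as the plot of shares under each way of calling shows. Without FOXA2FL replicate 2 the full-length count was 77 (51.3%, against 49.1%) and without replicate 1 it was 24 (16%, against 12.5%). Without FOXA2dCTD replicate 1 the FOXA2dCTD count was 71 (47.3%, against 42.9%) and without replicate 2 it was 24 (16%, against 19.9%).

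**Figure D1:**
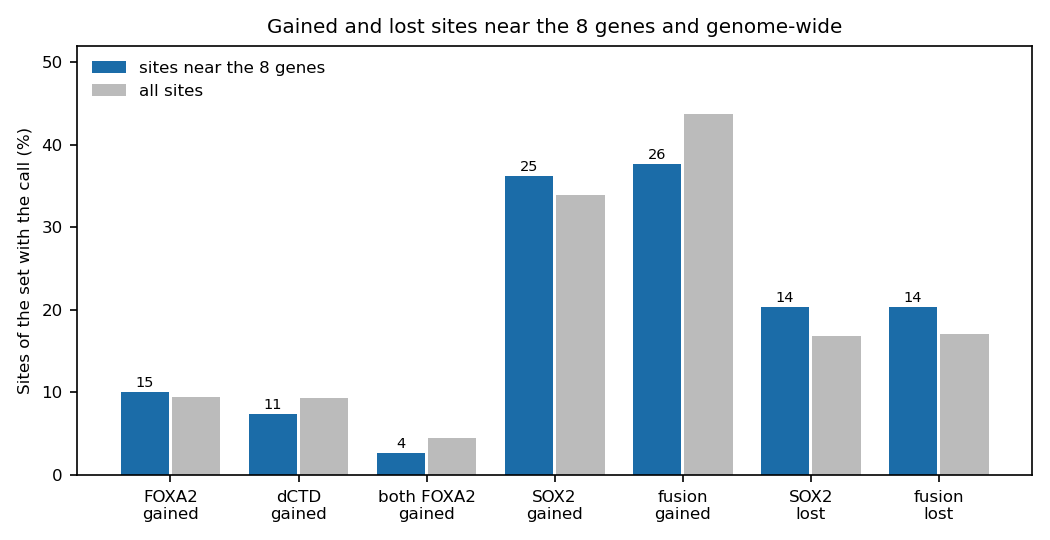
Percentage of the sites of a set with each call (y axis), near the 8 genes (blue, with the number of sites above the bar) and over all sites (grey). Full-length FOXA2 gained 10.0% near the genes and 9.39% of all sites, and no call near the genes stood more than 6.01 percentage points from its genome-wide share.

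A site upstream of IGFBP1 was gained with both FOXA2 constructs. The site at chr7:45856081-45856965, 31.5 kb before the gene and in no annotated gene body, was called in all 4 FOXA2 construct lists and had no entry in any other list, at any IDR. In full-length FOXA2 its −log10 p was 9.23 in replicate 1 (rank 7672, top 4.76%) and 17.7 in replicate 2 (rank 15725, top 27.1%). In FOXA2dCTD it was 4.52 in replicate 1 (rank 42910, top 54.4%) and 10.7 in replicate 2 (rank 6242, top 4.25%). It was the best ranked IGFBP1 site in FOXA2FL replicate 1 and FOXA2dCTD replicate 2. The full-length gain was also called at equal numbers of peaks, at the common threshold, where a peak had to cover 50% of the site and with summit windows, and a window of 10 kb leaves the site out. The FOXA2dCTD gain ended at equal numbers of peaks and at the common threshold.

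The IGFBP1 window held 25 sites in 105.2 kb, of which 13 belonged to the FOXA2 set. The site gained with both FOXA2 constructs was the only one of them gained with either. The strongest peak there in FOXA2FL replicate 2 was at chr7:45870104-45870496, 18 kb upstream, with a −log10 p of 24.6 (rank 7889), but no other list had an entry at that site. A site at chr7:45917213-45918271, inside the neighbouring IGFBP3 gene, was called in all 9 lists, at the top 8.82% in FOXA2FL replicate 1 and the top 83.0% in WT replicate 2. The site at chr7:45854296-45854874, 33.6 kb upstream, was already called in WT replicate 2 (top 62.8%), in both FOXA2FL lists and in all 3 SOX2-set lists, and in neither FOXA2dCTD list. The best ranked site of the second WT, chr7:45897316-45897724 (top 19.3%), lay 3.66 kb downstream and was lost with SOX2 and the fusion. The RefSeq promoter table held no row for IGFBP1, TAT or PCK1.

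At PPARGC1A, the distal start was gained with both FOXA2 constructs. The site at chr4:24472581-24473736 spans that start and also the start of LOC124900681, and holds the first sequence shown. Its −log10 p was 9.54 (top 4.27%) and 11.4 (top 55.5%) in FOXA2FL replicates 1 and 2, and 5.29 (top 39.6%) and 6.67 (top 15.9%) in FOXA2dCTD replicates 1 and 2, with no peak in either WT list of the FOXA2 set. In the SOX2 set it was called in WT (−log10 p 12.9, top 20.7%) and with SOX2 (22.4, top 7.15%), and the fusion entry failed the limit with an IDR of 0.278. So the second WT had this start open, and the gain did not hold when sites with an entry in that list were set aside.

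PPARGC1A had the longest window, 780.9 kb or 43.8% of the bases searched, and 76 of the 223 sites. The full-length construct also gained chr4:23754366-23755137 and chr4:23768372-23768884, 36.9 and 23.1 kb beyond its 3′ end and both in LOC105374528. Each had a peak in FOXA2dCTD replicate 2 (top 8.87% and 18.8%) but not in replicate 1, and neither had a SOX2-set entry. By the rule for gains, 2 sites in the gene body were gained with FOXA2dCTD and not with full-length FOXA2, chr4:23856079-23856876 and chr4:24469984-24470854. The first had −log10 p values of 4.18 (top 59.6%) and 3.08 (top 66.8%) in FOXA2dCTD replicates 1 and 2. FOXA2FL replicate 1 also had a peak there, at 4.65 (top 28.0%). Both sites had failing entries in the second WT list, with IDR values of 0.334 and 0.0504. The site at chr4:24382220-24383195, in the gene body, was the best ranked PPARGC1A site in FOXA2FL replicate 2 (top 17.0%), FOXA2dCTD replicate 1 (top 6.48%) and the second WT (top 17.1%), and WT replicate 2 called it too (top 83.0%). The single PPARGC1A peak of WT replicate 1, chr4:24067513-24068432, ranked at the top 90.5%. The proximal start, where the SOX letters occurred, had its nearest site 1544 bases away from the promoter.

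PCK1 had no peak in either WT list of the FOXA2 set and none at its own start in any list. Of its 17 sites, chr20:57514087-57514862, 46.2 kb upstream in CTCFL, was gained with full-length FOXA2 at −log10 p values of 4.53 and 14.5 in replicates 1 and 2. FOXA2dCTD replicate 2 also had a peak there, at 3.68. That site was gained with SOX2 as well, and the second WT had a failing entry there. Its full-length gain did not hold when sites with an entry in that list were set aside. The other full-length gain, chr20:57596782-57597596, lay 28.7 kb downstream in no gene and ranked low, at the top 58.1% and 94.1%. It was called in all 3 SOX2-set lists, the second WT included. FOXA2dCTD gained chr20:57547112-57547730, 13.4 kb upstream at the start of LOC124904941, with −log10 p values of 4.60 and 3.79, and FOXA2FL replicate 2 called it at 12.4. The same site was gained with SOX2 (11, top 24.5%) and with the fusion (7.57, top 30.7%) and had no entry in the second WT. It was the one site near the 8 genes gained with a FOXA2 construct, SOX2 and the fusion alike. The nearest peak to the gene on its upstream side, chr20:57558895-57559541 at 1.57 kb, was called in FOXA2FL replicate 1 alone (−log10 p 6.02, top 16.6%), with failing entries for SOX2 and the fusion. In FOXA2dCTD replicate 2 the best ranked PCK1 site was chr20:57582737-57583512, 14.6 kb downstream (4.99, top 32.4%), which SOX2 gained too.

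**Figure D2:**
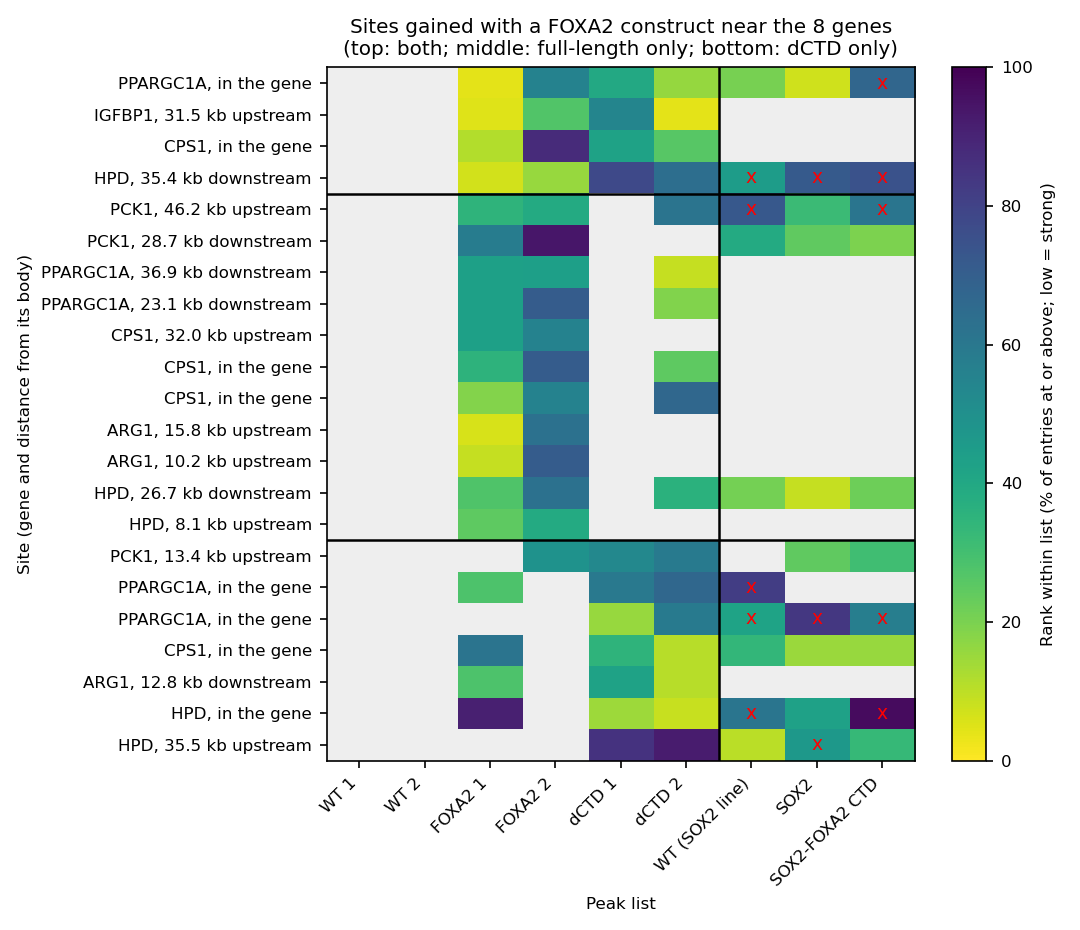
Rank within each list (colour, percent of entries at or above, yellow strong) for the 22 sites gained with a FOXA2 construct (rows, by gene and distance from its body) in the 9 lists (columns). Grey marks no entry and a red x an entry above the IDR limit; both left columns are empty by the rule, the 4 sites in the top block fill all 4 FOXA2 construct columns, and 5 of the 11 in the middle block have no FOXA2dCTD peak.

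CPS1, the mitochondrial enzyme that makes carbamoyl phosphate, had 4 full-length gains in a window of 301.4 kb, the longest but for PPARGC1A. The one shared with FOXA2dCTD, chr2:210540013-210540756 in the gene body, had −log10 p values of 6.87 and 7.71 in FOXA2FL replicates 1 and 2 and of 5.02 and 5.32 in FOXA2dCTD replicates 1 and 2. The sites chr2:210622154-210622946 and chr2:210628616-210629244, also in the body, had full-length values of 4.48 and 9.53, and of 5.65 and 11.4. FOXA2dCTD replicate 2 called both, at 5.46 and 3.08, and replicate 1 neither. The fourth, chr2:210445265-210445675, 32.0 kb upstream in LANCL1, had no FOXA2dCTD peak. None of these 4 had a SOX2-set entry. FOXA2dCTD gained 1 further site in the body, chr2:210553111-210554569, which was called in all 3 SOX2-set lists (top 33.8% in the second WT, 14.9% with SOX2 and 15.4% with the fusion) and in FOXA2FL replicate 1.

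Among the 3 listed CPS1 starts, the outermost had an open site at hand in every list. The site chr2:210476170-210477156, 0.529 kb upstream and at the start of the neighbouring LANCL1 gene, was the best ranked CPS1 site in all 9 lists. Its top percent was 5.59 and 20.6 in WT, 0.505 and 7.68 in full-length FOXA2, 6.18 and 0.157 in FOXA2dCTD, and between 1.53 and 1.89 in the SOX2 set. The start at position 210593355 had a single weak peak nearby, chr2:210593500-210593699, in FOXA2dCTD replicate 2 (−log10 p 3.08, top 66.8%). At the outermost start itself, chr2:210477488-210477746 had 1 entry, in the fusion list, which failed at an IDR of 0.268. The middle start, which carried the forkhead letters, had its nearest site 1609 bases from the promoter.

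ARG1, the enzyme that releases urea from arginine, had 2 full-length gains without any FOXA2dCTD or SOX2-set entry. They were chr6:131556858-131557438 and chr6:131562564-131563044, 15.8 and 10.2 kb upstream and in no gene. The first had −log10 p values of 8.56 (top 6.17%) and 10.5 (top 62.8%) in FOXA2FL replicates 1 and 2, and the second 7.74 (top 8.70%) and 9.53 (top 71.1%). Neither WT list had a peak at either site. FOXA2dCTD gained chr6:131597172-131597968, 12.8 kb downstream in MED23, at 5.02 and 7.84, and FOXA2FL replicate 1 also had a peak there, at 4.65. Within 1 kb of the ARG1 start, FOXA2FL replicate 1 alone had a weak peak, chr6:131573896-131574305, at 2.83 (top 67.1%). ARG1 was the only gene of the 8 with no site gained with SOX2 or the fusion, and its 1 called site in the SOX2 set was the start of MED23, chr6:131627746-131629352, open in all 9 lists. That site was the best ranked one of ARG1 in 8 lists, and the MED23 site gained with FOXA2dCTD was the best in FOXA2dCTD replicate 2 (top 10.6%).

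HPD, the enzyme of the second step of tyrosine breakdown, had 3 gains with each construct. The shared one, chr12:121802779-121804120, lay 35.4 kb downstream at the start of LINC01089. Its −log10 p was 8.30 (top 6.81%) and 23.5 (top 15.2%) in FOXA2FL replicates 1 and 2, and 3.50 (top 77.8%) and 3.56 (top 63.9%) in FOXA2dCTD replicates 1 and 2. All 3 SOX2-set lists had failing entries there, with IDR values of 0.129 in WT, 0.331 with SOX2 and 0.281 with the fusion. Full-length FOXA2 also gained chr12:121811454-121812856 in SETD1B, which was called in all 3 SOX2-set lists, and chr12:121896681-121897413 in PSMD9, 8.07 kb upstream, which no list outside FOXA2FL had.

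FOXA2dCTD gained chr12:121872326-121873484 in the HPD body and chr12:121924128-121925191 in CFAP251. The first had −log10 p values of 8.34 (top 14.8%) and 8.46 (top 8.51%), against 2.67 (top 91.1%) in FOXA2FL replicate 1, and no peak in FOXA2FL replicate 2. It was also gained with SOX2 at 6.85 (top 42.9%). Its FOXA2dCTD gain was also called at equal numbers of peaks and at the common threshold, and ended where any entry in the second WT was enough to set a site aside. The second site was weak with FOXA2dCTD (top 85.2% and 92.3%) and called in the second WT at the top 10.3%. At the HPD starts, the distal one lay in a site that was open in all 9 lists and shared with the start of PSMD9, chr12:121888290-121889340. The 3′ end of HPD also held an open site in all 9 lists, chr12:121839169-121840229, the best ranked HPD site in each of them.

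The downstream HPD start opened in the SOX2 set. The site chr12:121858856-121860030, which holds the second sequence shown, was gained with SOX2 (−log10 p 8.35, top 33.6%) and with the fusion (11.9, top 14.6%). The second WT had a failing entry there, at an IDR of 0.101. In the FOXA2 set only FOXA2dCTD replicate 2 called it, at 3.85 (top 57.6%).

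TAT and TDO2 were the genes without a FOXA2 gain under the main rule. TAT, the aminotransferase that starts tyrosine breakdown, had 16 sites. The site over its 3′ end, chr16:71564408-71565859, which is also the start of TAT-AS1, was called in all 9 lists, at the top 32.6% and 53.6% in WT, 13.6% and 34.4% in full-length FOXA2 and 26.4% and 24.9% in FOXA2dCTD. The site chr16:71607204-71608981, 30.1 kb upstream, was called in 8 of 9 lists and missing in FOXA2FL replicate 1, the longest list of the FOXA2 set. It was the best ranked TAT site in FOXA2dCTD replicate 2 (top 8.68%) and the second WT (top 11.5%). A peak 1.91 kb upstream of the gene, chr16:71579000-71579409, was in FOXA2FL replicate 1 alone. TDO2, the dioxygenase that starts tryptophan breakdown, had 4 sites in 116.7 kb, or 3.43 per 100 kb, the sparsest of the 8. Neither WT list, FOXA2FL replicate 2 nor FOXA2dCTD replicate 1 had any peak in its window. FOXA2FL replicate 1 and FOXA2dCTD replicate 2, the 2 longest lists of the set, had 3 each, with chr4:155854477-155855252, 48.4 kb upstream in ASIC5, as the best ranked (top 43.1% and 18.8%). The second WT called that site too (top 22.3%).

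**Figure D3:**
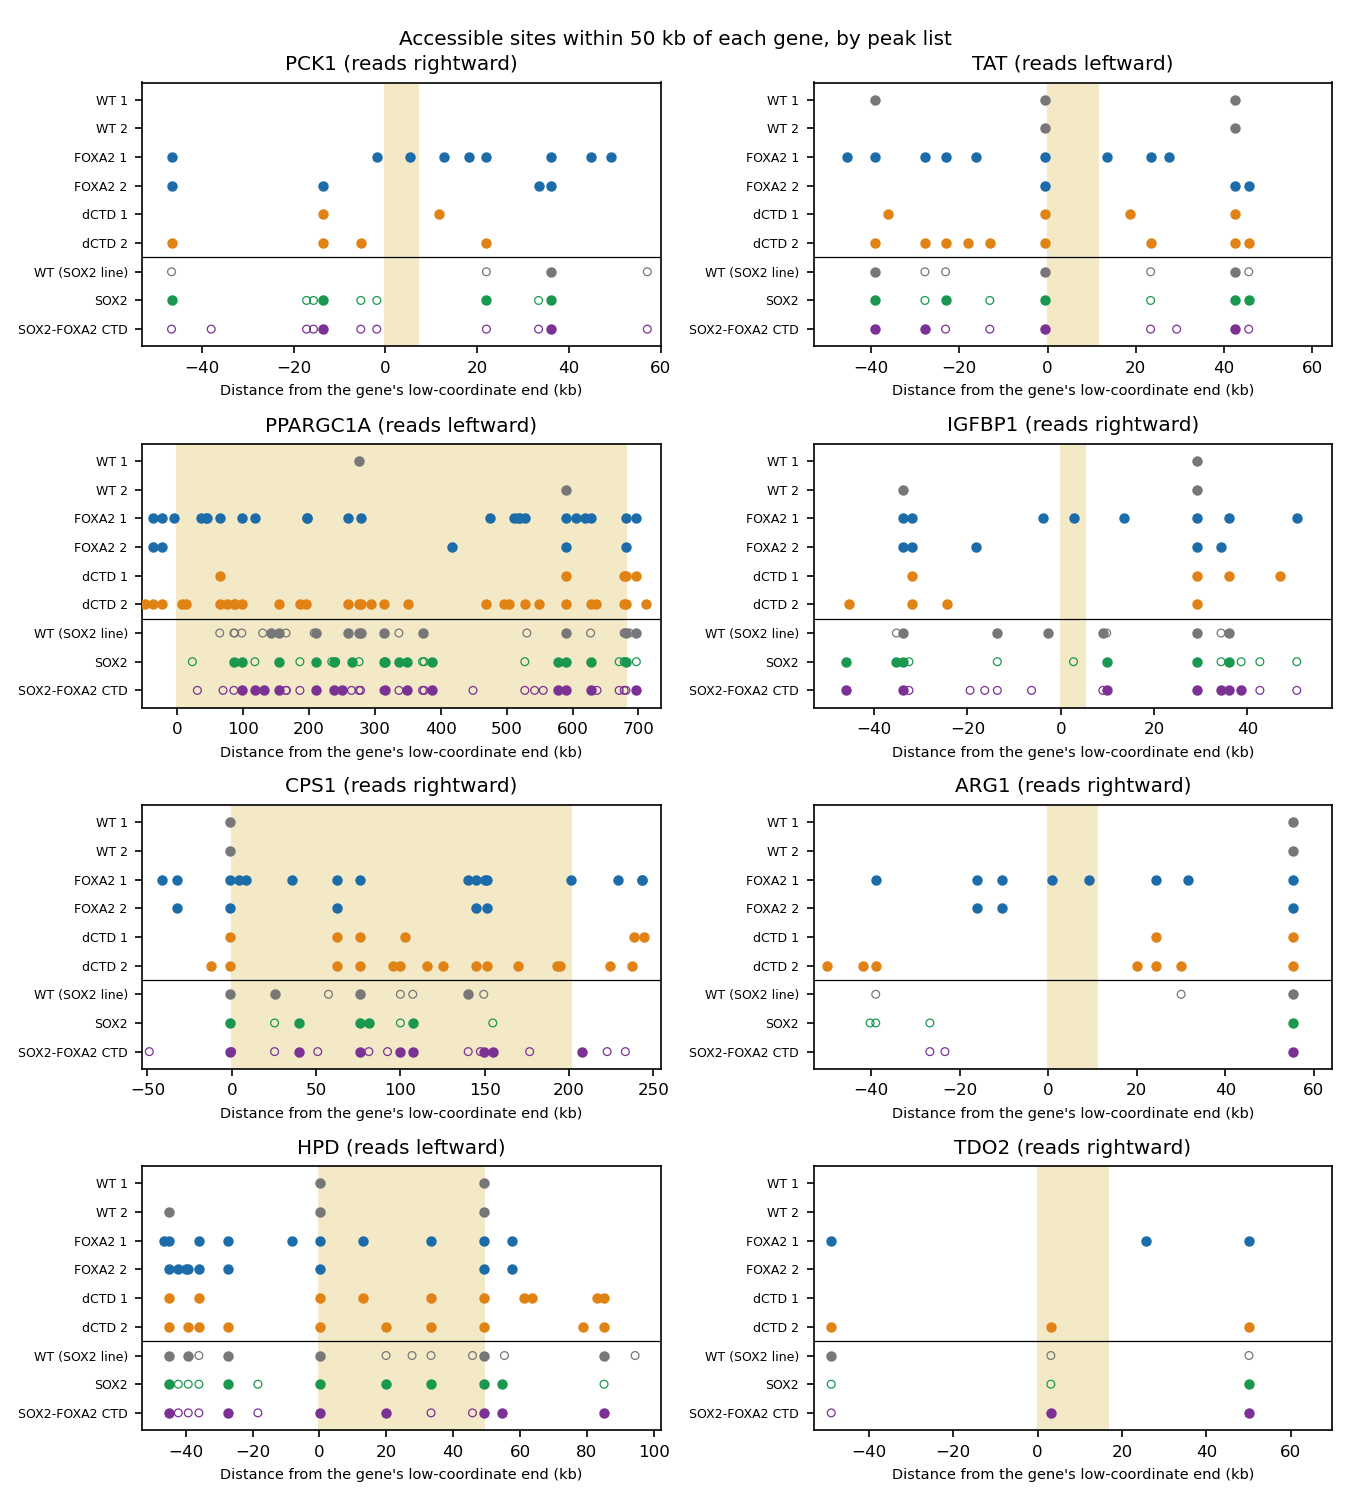
Sites within 50 kb of each gene by distance from the gene's low-coordinate end in kb (x axis) and by list (rows), with the gene body shaded. Filled points are called sites and open points entries above the IDR limit; TDO2 has 4 sites in all and PPARGC1A 76, and the FOXA2FL replicate 1 and FOXA2dCTD replicate 2 rows hold the most points of the FOXA2 set.

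In the SOX2 set, 25 of 69 sites near the genes were gained with SOX2 (36.2%, against 33.9% of all 102270 sites) and 26 with the fusion (37.7%, against 43.7%). Both gained 15 of these, or 60.0% of the SOX2 gains (against 71.6% of all SOX2 gains) and 57.7% of the fusion gains (against 55.5%). SOX2 and the fusion lost 14 sites each (20.3%), against 16.9% and 17.0% of all sites. With both, 12 were lost. The losses with SOX2 and with the fusion are called against the same WT list, and the 12 were not set beside all sites. By gene, 7 of the 8 had a SOX2 gain, against 75.0% of protein-coding genes, and the same number a fusion gain, against 76.6%. Of the 25 SOX2 gains, 14 had a failing entry in WT (56.0%, against 37.2% of all SOX2 gains), so many of them turned on the IDR limit. When any WT entry counted, 11 sites were left (15.9% of the 69, against 21.3% of all sites). With the fusion 11 of 26 had one (42.3%, against 27.9%), and 15 were left (21.7%, against 31.5%).

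The best ranked SOX2-set gain was in CPS1. The site chr2:210584748-210585366, in the gene body, was the best ranked gained site of CPS1 with SOX2 (−log10 p 18.1, top 11.1%) and with the fusion (16.6, top 6.69%), with a failing WT entry at an IDR of 0.323 and no FOXA2-set peak. In PPARGC1A, which held 10 gains with each construct, the best ranked one was chr4:23877593-23878245 with SOX2 (15.8, top 14.1%) and chr4:24107085-24107726 with the fusion (16.1, top 7.28%). The latter was gained with SOX2 as well, and neither WT nor the FOXA2 set had an entry there. The former had a failing entry in WT, at an IDR of 0.110, and another with the fusion. For IGFBP1 they were chr7:45898062-45898611, 4.40 kb downstream, with SOX2 (12.3, top 20.9%), and chr7:45841928-45842912, 45.6 kb upstream, with the fusion (12.1, top 14.1%). Both IGFBP1 sites were gained with SOX2 and the fusion alike. The downstream one had a failing WT entry at an IDR of 0.0803, and the upstream one had no WT entry.

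TDO2 gained chr4:155953112-155954389, in the neighbouring CTSO gene, with SOX2 (−log10 p 12.4, top 20.2%). The fusion gained that site as well, and WT had a failing entry there at an IDR of 0.344. Inside TDO2, chr4:155906476-155907237 was gained with the fusion (11.7, top 14.9%), where SOX2 and WT had failing entries at IDR values of 0.524 and 0.526. The best ranked TAT gains were chr16:71542096-71542998 with SOX2 (9.74, top 28.4%) and chr16:71537532-71538227 with the fusion (6.70, top 35.0%), 22.7 and 27.4 kb beyond the 3′ end. WT had failing entries at these TAT sites, with IDR values of 0.250 and 0.256. No site near the 8 genes was gained both with the fusion and with full-length FOXA2. Of the 15 full-length gains, 10 had no entry in any SOX2-set list (66.7%, against 55.3% of all full-length gains). A site gained with a FOXA2 construct and with SOX2 or the fusion occurred 3 times, 2 at PCK1 and 1 in HPD. These 3 sites, and the absence of a site gained with both the fusion and full-length FOXA2, were not set beside all sites. Neither is therefore read as a trait of these genes.

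The full-length gains near the 8 genes were set beside all full-length gains by their presence in the FOXA2dCTD lists, and the differences between the shares were not tested. Of the 15, 4 were in both FOXA2dCTD lists (26.7%, against 48.0% of all full-length gains), 6 in 1 list (40%, against 34.4%) and 5 in none (33.3%, against 17.6%). FOXA2dCTD replicate 1, the shorter list, held 4 of them (26.7%, against 54.3%) and replicate 2 held 10 (66.7%, against 76.1%). The 6 in 1 list were all in replicate 2. Of the 11 FOXA2dCTD gains, 4 were in both FOXA2FL lists (36.4%, against 48.4%) and 2 in neither (18.2%, against 22.2%). Both comparisons share the WT libraries. The median top percent of the full-length gains was 24.6 in replicate 1 (range 4.27 to 58.1) and 55.5 in replicate 2 (15.2 to 94.1), where all gains had medians of 21.8 and 49.1. For FOXA2dCTD the medians were 42.3 and 25.9, against 42.3 and 27.9.

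By position, 4 of the 15 full-length gains lay in the body of the gene itself, 6 upstream and 5 downstream. Of the 11 FOXA2dCTD gains, 6 lay in the body. Of all 150 sites of the FOXA2 set near the genes, 68 lay in the body, 34 upstream and 48 downstream. No gain with either construct fell on a start of the 8 genes other than the distal PPARGC1A start. Pooled over the 8 genes, the windows held 12.5 sites per 100 kb, against 13.7 near protein-coding genes in general. By gene, PCK1, TAT, IGFBP1, CPS1 and HPD stood above the latter value, at 14.4 (TAT) to 23.8 (IGFBP1). ARG1 (13.5), PPARGC1A (9.73) and TDO2 (3.43) stood below it, and PPARGC1A made up 43.8% of the bases. Sites of a single list made up most of the 150, since 99 were in 1 of the 6 lists (66.0%, against 67.3% of all sites). Sites in FOXA2FL replicate 1 or FOXA2dCTD replicate 2 alone made up 83 of the 150 (55.3%, against 56.2% of all sites). At the other end, 6 sites were in all 6 lists (4.00%, against 3.29%). These 6 were also called in all 3 SOX2-set lists, and all lay at ends of the 8 genes or in or beside neighbouring genes.

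Of the 9 listed starts, 1 promoter was called in each WT list, 2 in each FOXA2FL list, and 2 and 3 in the FOXA2dCTD lists. In the SOX2 set it was 2 in WT, 3 with SOX2 and 2 with the fusion. Over all 35116 promoters the called share ran from 25.7% in WT replicate 2 to 46.3% in FOXA2dCTD replicate 2.

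Among 38 related genes of the same pathways, 34 had a site gained with full-length FOXA2 within 50 kb and 29 one gained with FOXA2dCTD. For both constructs it was 25. The shares of all protein-coding genes given above were 73.5%, 69.8% and 49.6%, and no list was tested against them. Of the 6 other urea cycle genes, 6 had a full-length gain and 4 a FOXA2dCTD gain, with NAGS and SLC25A15 missing in the latter. For amino acid breakdown it was 14 and 11 of 16, for fasting regulators such as FOXO1 and PPARA 6 of 6 with each, and for the IGFBP family other than IGFBP1 it was 3 of 5 with each. The median window was 130.1 kb for these 38 genes, 114.1 kb for the 8 and 124.2 kb for all protein-coding genes. Near these genes 1 site was lost with full-length FOXA2, in the overlapping windows of IGFBP2 and IGFBP5, and none with FOXA2dCTD.

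**Figure D4:**
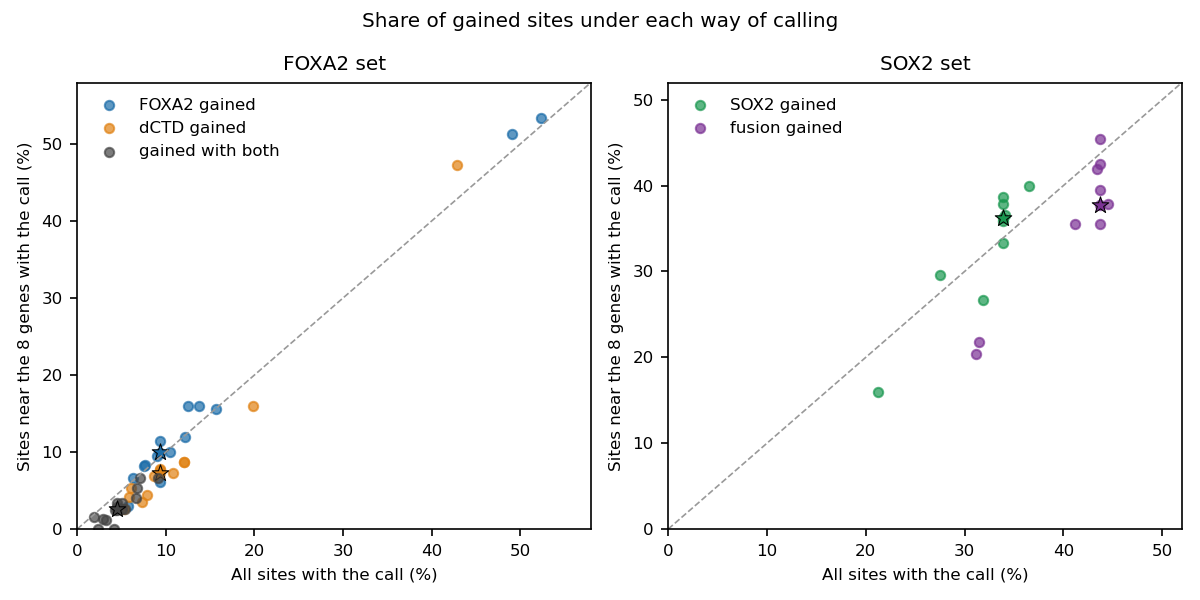
Share of gained sites near the 8 genes (y axis, percent) against the share over all sites (x axis, percent) under each way of calling, for the FOXA2 set (left) and the SOX2 set (right); stars mark the calls as reported. Points run along the dashed line of equal shares from near 0 to above 50% in the FOXA2 set, where the full-length share is 8.33% near the genes and 7.64% of all sites at equal numbers of peaks.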

How the data were processed

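ATAC-seq was measured in 12 U2OS samples in 6 labelled groups of 2, and 9 processed peak lists were used. Per the submitters' processing notes, reads were handled with FastQC 0.10.1, Trim Galore, Bowtie2 2.4.4, SAMtools 0.1.18, MACS2 and deepTools 2.4.1 on hg38. Their parameters are not given in the sources used here. In the 6 lists of the FOXA2 set, 1 per library, the deposited fold enrichment is the authors' ratio over local background and the deposited −log10 p and −log10 q are the authors' as well. The deposited score restates −log10 q or −log10 p, or in the 3 lists of the SOX2 set the IDR. Those 3 lists have the layout of an IDR comparison of 2 inputs, were not limited by IDR, and 3 samples had no list of their own. That the inputs were the labelled replicates is assumed.

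Entries of all 9 lists on chromosomes 1 to 22 and X were merged with Python 3.11.15 (pandas 2.3.3, numpy 2.4.6, matplotlib 3.10.9) into sites. A list calls a site that it overlaps by 1 base or more, and an IDR-layout entry counts at a global IDR of at most 0.05. Windows are the RefSeq GRCh38.p14 gene body and 50 kb on either side, and exons were not used here. The strand of PCK1, TAT and IGFBP1 is background knowledge. The search for letters had been planned for summit windows, but was run on RefSeq promoters since no genome sequence was used here. Read depth is unknown, so no interval is given. The calling was tested on simulated lists. Sites named are all those gained or lost with a FOXA2 construct, called in all 6 lists of that set or within 1 kb of a start, the best ranked site of each gene in a list, and the best ranked SOX2-set gain of each gene; other sites named were chosen after their values were seen. The 8 genes, the related gene lists and the rules were chosen with earlier results of these data known. The result of 1 related list, gluconeogenesis, is not reported here on its own. Alternatives covered the number of peaks, the p and IDR limits, the window, the overlap, summit windows and each library of the FOXA2 set left out, since the SOX2 set has no list per library. A further 3 were added after seeing the data.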

Additional observations from a re-analysis of the deposited data

How the results depend on the processing

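No paired analysis was possible because the calls rest on overlap of peak lists and come from no test. With equal numbers of peaks, full-length FOXA2 gained 2 sites (8.33%, against 7.64% of all sites), FOXA2dCTD 1 (4.17%, against 5.85%) and both 0 (against 2.39%). With each construct 1 site was lost (4.17%, against 4.48% and 3.53%), in both cases the TAT 3′ end site. SOX2 gained 16 (29.6%, against 27.5%) and lost 20 (37.0%, against 27.3%). The fusion gained 11 (20.4%, against 31.2%) and lost 18 (33.3%, against 31.0%). At the common threshold of 5.43 the gains with full-length FOXA2, FOXA2dCTD and both were 7, 2 and 0 (15.6%, 4.44% and 0%, against 15.6%, 7.91% and 4.16%). A 10 kb window gave 5, 6 and 2 gained in the FOXA2 set (6.10%, 7.32% and 2.44%, against 9.39%, 9.32% and 4.51%). In that window 9 were lost with SOX2 (20.5%, against 16.9%). A 100 kb window gave 23, 18 and 8 gained (9.91%, 7.76% and 3.45%, against 9.39%, 9.32% and 4.51%) and 1 lost with full-length FOXA2 (0.431%, against 0.153%). SOX2 and the fusion gained 38 and 45 in it (35.8% and 42.5%, against 33.9% and 43.7%). Where a peak had to cover 50% of a site, 4, 7 and 2 were gained (3.05%, 5.34% and 1.53%, against 5.75%, 6.02% and 1.94%). These included the TAT 3′ end site, which under that rule counted as gained with each construct and with both. Summit windows gave 6 for FOXA2dCTD (3.53%, against 7.33%) and 2 for both (1.18%, against 3.20%). Leaving out a library of the FOXA2 set, which can only keep or add gains, gave 15 to 77 full-length gains, 11 to 71 FOXA2dCTD gains and 4 to 10 for both, and 0 to 1 losses with either construct; the high values came without FOXA2FL replicate 2 and without FOXA2dCTD replicate 1. The 10 gained with both, without FOXA2dCTD replicate 1, were 6.67% (against 7.15% of all sites). Among the lists without and with mitochondrial peaks the full-length gains were 24 and 80. In the latter lists 10 sites were gained with both (6.67%, against 9.14%) and 2 lost with full-length FOXA2 (1.33%, against 1.44%). All IDR entries gave 55 fusion gains (42.0%, against 43.4% of all sites). Counting any entry as present gave 11 and 15 gained with SOX2 and the fusion (15.9% and 21.7%, against 21.3% and 31.5%). Under that rule 6 and 3 were lost (8.70% and 4.35%, against 5.76% and 4.25%). An IDR of at most 0.01 gave 16 fusion gains (35.6%, against 41.1%). At that limit 9 of 45 sites were lost with each of SOX2 and the fusion, against 16.4% and 18.4% of all sites. Of the alternatives added after seeing the data, requiring no entry in the second WT gave 4 FOXA2dCTD gains (2.67%, against 5.25%) and 2 with both (1.33%, against 2.93%). The genes other than PPARGC1A gave 15 and 16 gained with SOX2 and the fusion (33.3% and 35.6%, against 33.9% and 43.7%). Merging within a set changed no gained count. The cause of these shifts was not tested. List length and the unknown depth limit every absence: a missing peak does not show closed chromatin.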
